A study of Mus musculus with 22 samples.

Results

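A set of 10 genes from the transcription factor network of chondrocyte hypertrophy was followed through a mouse study of the DNA methyltransferase gene Dnmt1. They were chosen by name, as the rows of the count tables whose symbol is Runx1, Runx2, Runx3, Cbfb, Mef2c, Mef2d, Sp7, Foxa2, Foxa3 or Hdac4. All 10 were found, among 34866 genes listed for the cultures and 23911 listed for cartilage, and all 10 passed the filter on low counts in every comparison. Primary chondrocytes from knee cartilage were cultured from control mice, labelled Dnmt1 flox, and from cKO mice, labelled Prrx1-Cre;Dnmt1 flox/flox. At day 0 they were untreated, with 3 samples per genotype. At day 3, with 4 samples per genotype, they had received bone morphogenetic protein 2 (BMP2), at 100 ng/µl as labelled, since day 0. Cartilage tissue of mice at postnatal day 5, labelled flox (control) or cKO, gave 4 samples per genotype, in each of which replicates 1 and 2 were male and replicates 3 and 4 female. The design text of the series gives postnatal days 3 to 5 for both kinds of sample. Prrx1-Cre acts in the early limb mesenchyme, so the deletion is not limited to chondrocytes. The culture labels call the samples biological replicates, while nothing in the labels says whether the cartilage samples came from separate animals, so p-values there measure the spread between these samples.

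During growth of a long bone, chondrocytes stop dividing, enlarge and start a hypertrophic programme that ends in mineralised matrix. Runx2 and Runx3 drive this step, and each Runx protein binds DNA more strongly together with its partner Cbfb. Mef2c works beside them, the class IIa histone deacetylase Hdac4 holds Mef2 and Runx2 proteins back, Sp7 (osterix) acts downstream of Runx2 in hypertrophic chondrocytes and osteoblasts, and the forkhead factors Foxa2 and Foxa3 also activate hypertrophic genes.

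The Runx genes share a sequence at their start sites, which is shown because these proteins recognise it. The core of the known Runx binding site is TGTGGT, or ACCACA on the other strand. Promoter windows from RefSeq (GRCm38.p6), which run from 250 bases before to 50 bases after a start, were given for 9 of the 10 genes, in 15 windows. Either form of the core lay in 3 of these windows, 1 for each Runx gene, and in 16.8% of all 32851 windows of that length. In each of the 3 the core stood as a pair of copies 8 bases apart, ACCACA, any 2 bases and ACCACA again, a pair that only 7 of the 32851 windows (0.0213%) held on either strand. The 30 bases around each pair follow, on the strand of the gene, with the core in capitals.
Runx1: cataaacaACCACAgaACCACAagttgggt
Runx2: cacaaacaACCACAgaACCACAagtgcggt
Runx3: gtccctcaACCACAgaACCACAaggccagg
The Runx1 site lies at chr16:92826025-92826054 on the minus strand, inside the annotated gene, with its copies 29 and 37 bases into the transcript of the upstream (distal) start. The Runx2 site lies at chr17:44814583-44814612 on the minus strand, also inside the annotated gene, with its copies at positions 24 and 32, and another copy stands at position −80. The Runx3 site lies at chr4:135120503-135120532 on the plus strand, before the gene, with its copies at positions −134 and −126 from the distal start. These are letter matches, and no binding was measured.

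The starts of the Runx genes also differ in CpG, the dinucleotide that Dnmt1 methylates, although methylation was not measured here. In the 250 bases before a start the number of CpG was 0 for the only Runx2 start given. It was 2 and 27 for the distal and proximal starts of Runx1, and 8 and 38 for those of Runx3. The Runx2 start lies near the upstream end of the gene, as the distal starts do, and any other start of Runx2 was not covered. The median over all promoter windows was 6, with quartiles of 2 and 16. Cbfb had 25, Hdac4 23, Mef2d 19, Foxa3 18, the 3 starts of Foxa2 between 6 and 20 and the 3 starts of Mef2c between 1 and 6. The 2 ends of the range among Runx1 and Runx2 are shown with CpG in capitals. They are the proximal start of Runx1, at chr16:92697330-92697579 (minus strand), and the upstream start of Runx2, at chr17:44814628-44814877 (minus strand). These are not starts of the same kind.
Runx1 proximal: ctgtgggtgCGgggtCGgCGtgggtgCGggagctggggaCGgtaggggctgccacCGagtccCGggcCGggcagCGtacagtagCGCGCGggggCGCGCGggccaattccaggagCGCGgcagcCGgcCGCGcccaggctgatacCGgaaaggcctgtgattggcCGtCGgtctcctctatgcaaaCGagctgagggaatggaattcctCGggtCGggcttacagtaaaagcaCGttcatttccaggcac
Runx2: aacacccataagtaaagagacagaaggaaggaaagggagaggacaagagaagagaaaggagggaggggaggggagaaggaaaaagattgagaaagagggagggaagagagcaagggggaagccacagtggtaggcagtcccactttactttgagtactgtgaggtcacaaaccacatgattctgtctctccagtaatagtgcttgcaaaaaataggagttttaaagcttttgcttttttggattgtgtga

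Depth, labels and cell markers set the frame for these genes. Libraries held 41749327 to 51741478 counts at day 0, 14434197 to 18918714 at day 3 and 1100198 to 1888896 in cartilage. Levels are given as CPM, a gene's counts scaled to a common library total, on 1 scale for all cultures and another for cartilage. Dnmt1 was lower in every cKO library than in every control library, with log2 fold changes of −2.44, −1.41 and −1.66 at day 0, at day 3 and in cartilage (edgeR adjusted p 1.62e-08, 0.00625 and 6.34e-05). The chondrocyte label was checked on 8 markers, such as Col2a1 and Acan. Their summed level was 136000 to 144200 CPM in controls against 48790 to 59570 in cKO cultures at day 0, and 85920 to 106600 against 1134 to 15890 at day 3. In cartilage it was 61800 to 93290 against 28090 to 57120 CPM. The 10 skeletal muscle markers summed to 12.78 to 14.36 CPM in controls against 74.44 to 79.29 in cKO cultures at day 0, and to 1.649 to 2.172 against 155.4 to 2072 at day 3. In cartilage the sums were 12.8 to 17.26 in controls and 58.87 to 90.96 CPM in cKO. The table there held 8 of these 10 markers, without Myod1 and Ckm. Of the 10, 8 were absent or had at most 3 counts in every control library, and 6 in every cKO library. Only 2 could be tested there, and both were called higher, where 3.15% of all genes were. Myog and Myf5 were at 0 counts in every cKO library of cartilage. Replicate 4 of the day 3 cKO cultures stood apart from the other libraries. Its Dnmt1 level was the lowest of its group, at 10.9 CPM beside 34.3, 35.6 and 22.2 CPM in replicates 1 to 3. This library also held the lowest chondrocyte sum (1134 CPM) and the lowest muscle sum of its group (155.4 CPM). Its osteoblast marker sum was 12430 CPM against 9935 to 11190 in the other 3. The cartilage libraries were split by pool, with every control in pool 1 and every cKO in pool 2, so pool and genotype cannot be told apart. In bulk samples fewer cells of a type and less RNA per cell cannot be told apart either, and what part these markers play in the results that follow was not tested.

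The genotype effect was tested on the 10 genes in each setting. At day 0, 6 of the 10 were called at an adjusted p under 0.05 in edgeR's quasi-likelihood test: Runx2, Runx3, Mef2d and Hdac4 rose and Foxa2 and Foxa3 fell. Of all genes tested 64.5% were called there (33% higher and 31.6% lower), so this count is near the background. At day 3, 4 of the 10 were called, against 48.1% of all genes. All 4 (Runx1, Sp7, Hdac4 and Mef2d) rose, where 25.5% of all genes were called higher and 22.6% lower. In cartilage 2 of the 10 were called, against 6.19% of all genes, and both (Runx1 and Runx2) fell, where 3.04% were called lower and 3.15% higher. The fitted log2 fold change was below 0 for all 10 genes in cartilage, for 4 at day 0 and for 3 at day 3. Its median over the 10 was 0.18 at day 0, 0.44 at day 3 and −0.45 in cartilage, beside 0.01 over all genes tested in each. The libraries of the genotypes did not overlap for 7 of the 10 at day 0, 4 at day 3 and 2 in cartilage, where 70.4%, 47.9% and 13.5% of all genes did not overlap. Of the 7 at day 0, 4 were higher and 3 lower (36.2% and 34.2% of all genes), of the 4 at day 3, 3 were higher and 1 lower (24.4% and 23.5%), and both in cartilage were lower (6.4%, with 7.12% higher). Without replicate 4 of the cKO cultures 6 of the 10 were called at day 3, 5 higher and 1 lower, where 55.1% of all genes were (28.8% higher and 26.4% lower). With the 14 cultures fitted together, 1 of the 10 (Mef2d, higher) was called at day 0, where 42% of all genes were (21.1% higher and 20.9% lower), and 7 at day 3, where 57.8% were. Of those 7, 5 were higher and 2, Foxa2 and Foxa3, lower (30.3% and 27.5% of all genes).

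**Figure D1:**
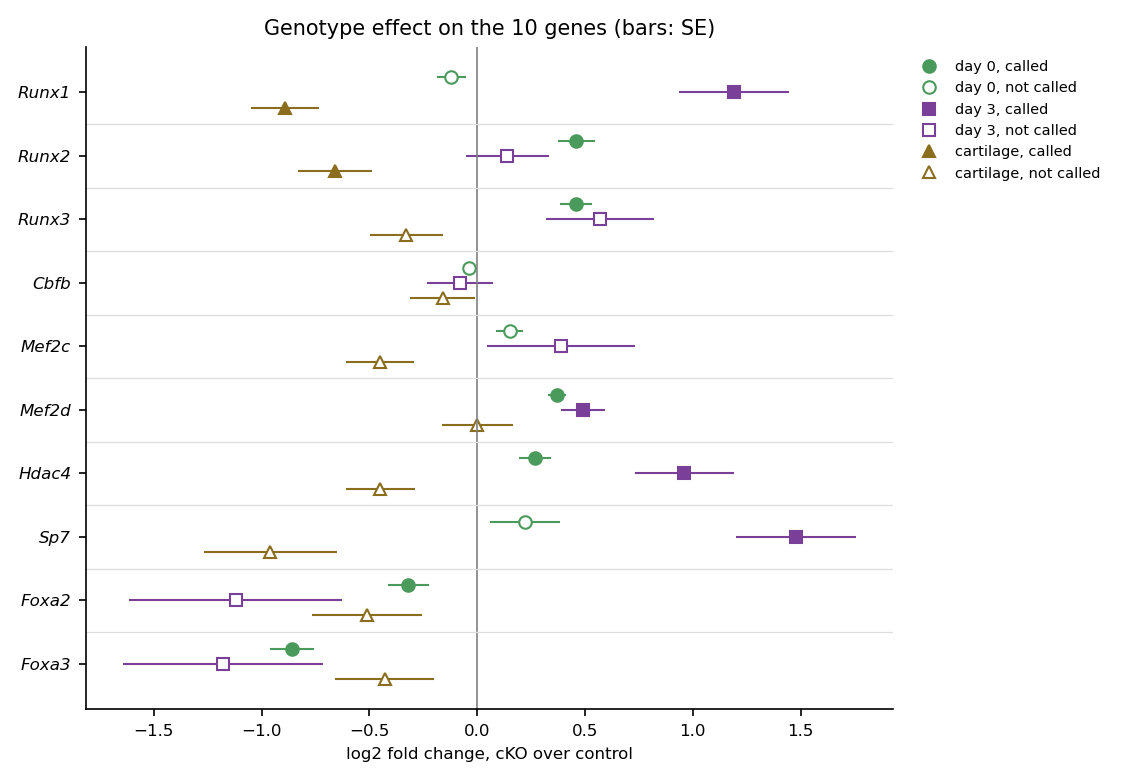
Log2 fold change of cKO over control (horizontal axis, bars are SE) for each of the 10 genes at day 0 (circles), at day 3 (squares) and in cartilage (triangles), with filled symbols for an adjusted p under 0.05. The squares of Runx1 (1.19) and Sp7 (1.48) lie far to the right, while their triangles (−0.89 and −0.96) lie on the other side of 0.

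Runx1, best known as a regulator of blood cell formation and also active in cartilage, showed opposite genotype effects in BMP2 cultures and in cartilage. At day 0 the control cultures held 18.6, 19.1 and 20.2 CPM of it and the cKO cultures 16.3, 17.9 and 19.2 CPM. These overlapped, and the log2 fold change of −0.12 (SE 0.0682) was not called (edgeR adjusted p 0.159). At day 3 the control cultures had 27.8, 48.4, 42.2 and 33.7 CPM and the cKO cultures 102, 93.6, 101.7 and 48.1 CPM. The first 3 cKO cultures had about the same high level, and replicate 4 fell inside the control range. The control mean was 38.0 ± 9.08 CPM and the cKO mean 86.4 ± 25.8 CPM (SD, n = 4 each), and the log2 fold change was 1.19 (SE 0.254, edgeR adjusted p 0.00498), or 1.38 (adjusted p 9.41e-05) without replicate 4. The genotype effect at day 3 exceeded that at day 0 by 1.30 (SE 0.327, adjusted p 0.0174), a difference that was called with each of the 14 cultures left out in turn (highest adjusted p 0.0484).

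In cartilage Runx1 had 130.6, 128, 155.9 and 138.5 CPM in the control samples and 88.2, 91.8, 64.2 and 56 CPM in the cKO samples. Every cKO sample was below every control sample, from a mean of 138.2 ± 12.6 to 75.1 ± 17.6 CPM (SD, n = 4 each). The log2 fold change was −0.89 (SE 0.158, edgeR adjusted p 0.00233), and it ranged from −0.98 to −0.79 with single samples left out, all 8 times past the threshold. Counts of Runx1 in single cartilage libraries were 65 to 269, so counting error alone is larger there than in the cultures. Markers of marrow and blood cells, in which Runx1 is also active, moved with this result in part. The osteoclast list, with 6 of its 7 genes in the cartilage table, summed to 126.1 to 456.7 CPM in control and 58.78 to 118.6 in cKO samples, with all 3 of its tested genes called lower. Its gene Calcr was not in that table, so no count was given for it. The erythroid list of 5 genes summed to 159.1 to 853.1 CPM in control and 10.92 to 369.3 in cKO samples, with Alas2 at 0 in cKO. The blood and immune list had 9 of its 10 genes in the cartilage table, without Cd3e. It overlapped between the genotypes, at 30.02 to 64.87 CPM in control and 29.29 to 48.17 in cKO samples. The part of these lists in the fall of Runx1 was not tested.

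Runx2, the main driver of bone formation and of hypertrophy, rose in untreated cKO cultures and fell in cKO cartilage. At day 0 the control cultures had 23.6, 27.4 and 27.3 CPM and the cKO cultures 40.5, 33 and 34.4 CPM. Each cKO culture was above each control culture, and the log2 fold change was 0.46 (SE 0.0863, edgeR adjusted p 0.00127). In 1 fit of the 14 cultures it was not called (adjusted p 0.0603). After BMP2 the control cultures had 55.8, 37.5, 62.3 and 52.8 CPM and the cKO cultures 51.8, 53.5, 46.9 and 74.6 CPM. These ranges overlapped widely, and the log2 fold change of 0.14 (SE 0.192) was not called (adjusted p 0.576).

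Cartilage samples gave 60.8, 93.9, 64.2 and 57.1 CPM of Runx2 in control and 37.8, 47.2, 43.7 and 43.9 CPM in cKO. No cKO sample reached the lowest control sample. The log2 fold change was −0.66 (SE 0.171, edgeR adjusted p 0.0321). The call was lost in 4 of the 8 fits that left out 1 sample (cKO replicates 1 and 4, control replicates 2 and 3, with a highest adjusted p of 0.123), under DESeq2 (0.108) and in the authors' table of estimated counts (0.0682). The 8 osteoblast markers, genes of cells in which Runx2 is also high, summed to 43210 to 81710 CPM in control and 21100 to 49790 in cKO samples. These ranges overlapped, and Bglap, Bglap2 and Phospho1 had at most 3 counts in every library. Of the 4 markers tested 1 was called lower and 0 higher (3 lower at an unadjusted p under 0.05). At day 0, where Runx2 was higher in cKO, the same list summed to 3833 to 5848 CPM in control and 1902 to 2655 in cKO cultures. Of its 6 genes tested there 4 were called lower and 1 higher, beside 31.6% and 33% of all genes. The part of this list in the results of Runx2 was not tested. The antisense genes Runx2os1, Runx2os2 and Runx2os3 and the gene Supt3 overlap Runx2 on the opposite strand. The strand setting of the counting is not given in the sources used here, so reads of these genes and of Runx2 may not be separated. Gm26626 overlaps Runx1, Gm16224 Runx3, 1700113A16Rik Mef2d, and Gm37048 and Gm26720 Hdac4 in the same way.

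Runx3, which acts with Runx2 in chondrocyte maturation, moved like Runx2 at day 0. Control cultures had 30, 31.7 and 31.2 CPM and cKO cultures 48.1, 40.4 and 39.4 CPM, with no overlap (log2 fold change 0.46, SE 0.0743, edgeR adjusted p 0.000519, and 0.113 with all 14 cultures fitted together). At day 3 it was 18.5, 12.5, 14.1 and 19.5 CPM in control and 19.2, 18.1, 21.6 and 35.7 CPM in cKO cultures. Replicate 4 was the highest of the cKO cultures, the groups overlapped, and the log2 fold change of 0.57 (SE 0.251) was not called (adjusted p 0.0896), but it was with the 14 cultures in 1 fit (0.0326). The cartilage samples had 38.6 to 78.5 CPM in control and 39.6 to 46.4 CPM in cKO, a log2 fold change of −0.33 (SE 0.169, adjusted p 0.265). The lowest and highest cartilage values were both in control samples.

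Cbfb, the shared partner of the Runx proteins, was not called in any of the 3 settings. At day 0 it was 113.7, 113.6 and 115.6 CPM in control and 111.3, 109.7 and 113.3 CPM in cKO cultures. The groups just failed to overlap, with cKO lower, but the log2 fold change was −0.04 (SE 0.0266, edgeR adjusted p 0.218). At day 3 the range was 95.2 to 125.8 CPM in control and 70.2 to 114.1 CPM in cKO cultures (log2 fold change −0.08, SE 0.151, adjusted p 0.696). In cartilage it was 77.7 to 99 CPM in control and 60.5 to 93.6 CPM in cKO (−0.16, SE 0.151, adjusted p 0.581).

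**Figure D2:**
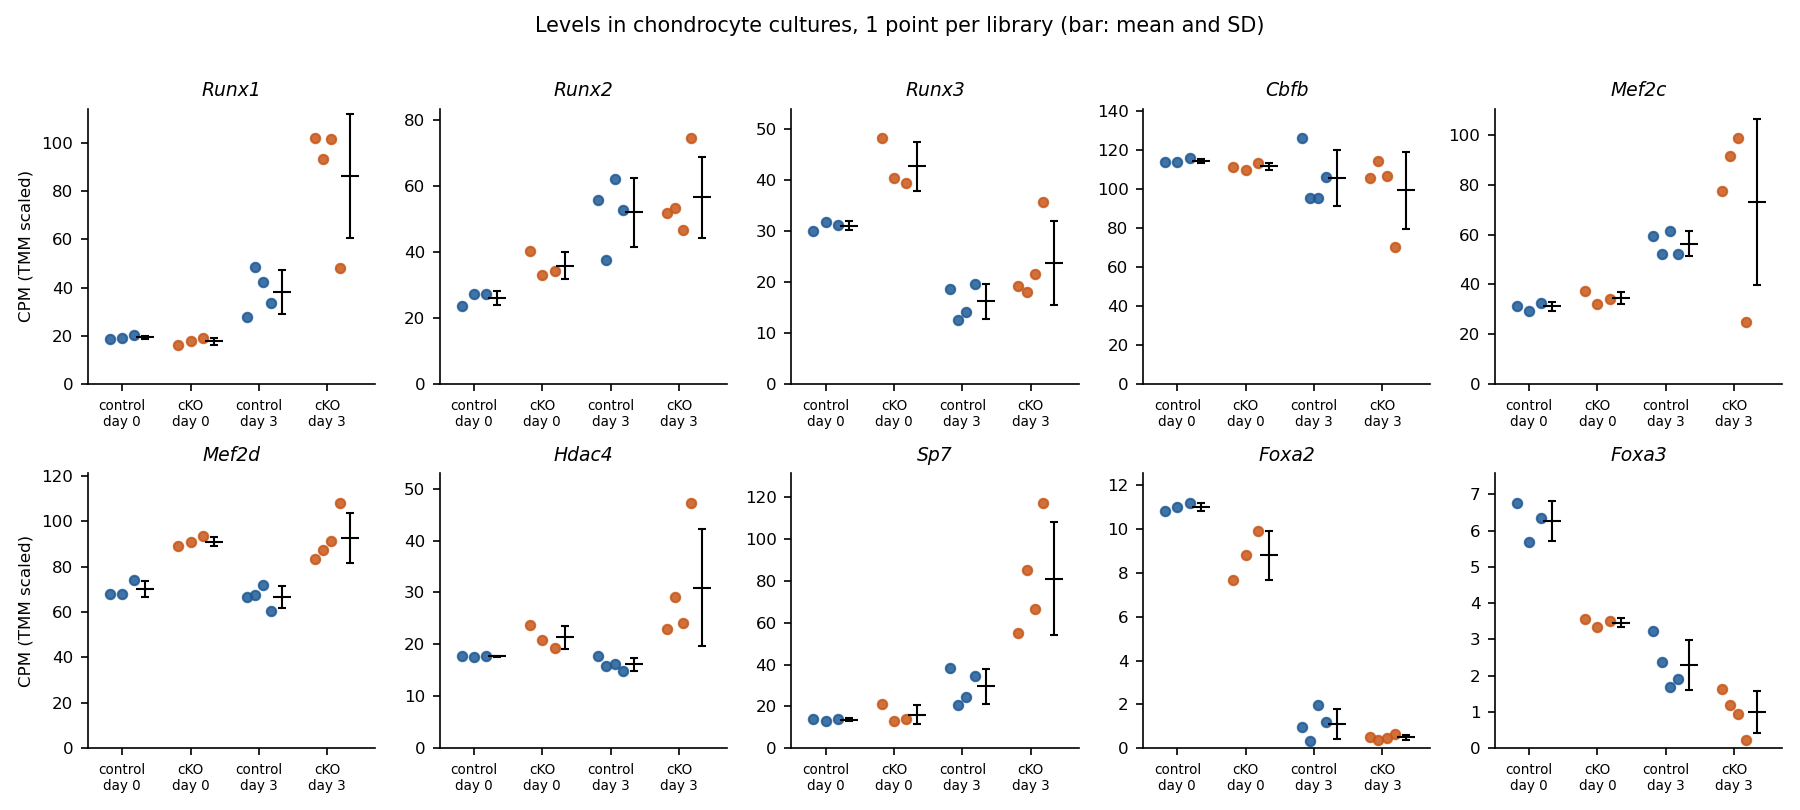
Level of each of the 10 genes (vertical axes, CPM from 0, each panel on its own scale) in every culture library by genotype and day, with control in blue, cKO in orange, and the mean and SD in black beside the points. At day 3 the genotypes separate for Sp7 but overlap for Runx1, where control replicate 2 is at 48.4 CPM. Replicate 4 of the cKO cultures (the rightmost orange point) is the lowest of its group for Runx1 (48.1 CPM) and the highest for Sp7 (117.5 CPM). Foxa2 is near 0 in both genotypes at day 3.

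Levels of the 3 Runx genes can be set beside each other per length, as CPM per kb of exon, in the cultures. The length was that of all annotated exons of a gene joined, 12.025 kb for Runx1, 8.837 kb for Runx2 and 5.003 kb for Runx3. The shares depend on this choice. Without the division by length the means in untreated controls were 31 CPM for Runx3, 26.1 for Runx2 and 19.3 for Runx1. In untreated controls Runx3 made up 57.6% ± 0.995 (SD, n = 3) of the Runx total, Runx2 27.5% ± 1.08 and Runx1 14.9% ± 0.449. In control cultures after BMP2 the order was Runx2 at 47.6% ± 5.95, then Runx3 at 26.2% ± 4.83 and Runx1 at 26.1% ± 8.11 (SD, n = 4), where the last 2 did not differ beyond their spread. In cKO cultures after BMP2 it was Runx1 at 39.6% ± 12.8, Runx2 at 34.8% ± 5.91 and Runx3 at 25.5% ± 7.44 (SD, n = 4), and neighbours in that order overlapped. The share of Runx1 was 13.5 percentage points higher in cKO than in control cultures at day 3 (two-sided exact permutation test, p = 0.114, and 0.137 adjusted over the 6 shares compared). The share of Runx2 was lower by −12.8 percentage points (exact p = 0.0571, adjusted 0.137). Neither p was under the threshold even before adjustment. The smallest p such a test can give is 0.0286 with 4 cultures per group at day 3, and 0.1 with 3 at day 0. With these limits no share could pass once adjusted over the 6, so the adjusted values cannot decide whether the shares differ.

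**Figure D3:**
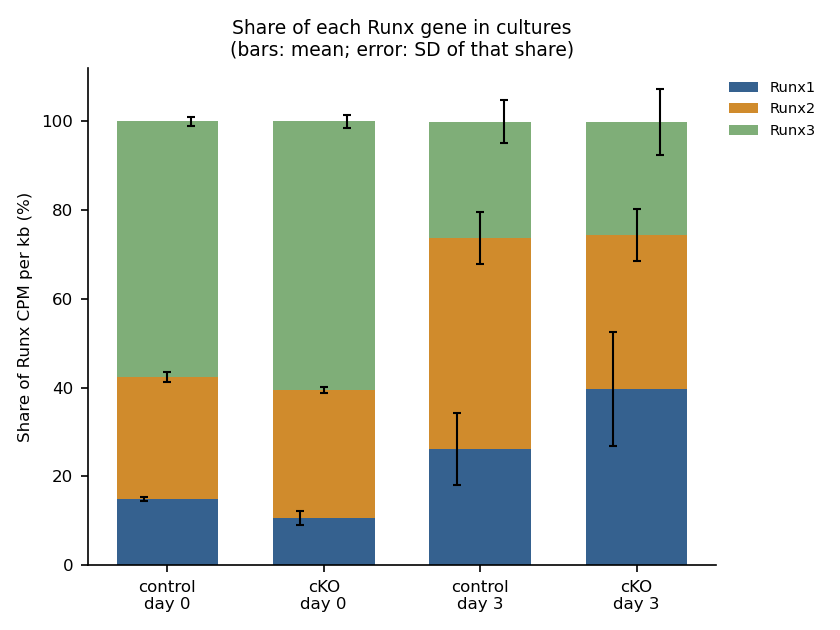
Mean share of Runx1, Runx2 and Runx3 in the Runx total of CPM per kb of exon (vertical axis, percent) in the 4 groups of cultures, with error bars for the SD of each share. Runx3 fills most of the bars at day 0 (57.6% in control), and the Runx1 segment is largest in the cKO cultures at day 3 (39.6%).

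Mef2c, which cooperates with Runx2 and activates Col10a1, was not called between the genotypes in any of the 3 settings. At day 0 the control cultures had 31.5, 29.4 and 32.7 CPM and the cKO cultures 37.3, 32.2 and 34.2 CPM (log2 fold change 0.15, SE 0.0635, edgeR adjusted p 0.0696). Without cKO replicate 2 of that day it was called (0.19, adjusted p 0.0262). After BMP2 the control cultures had 59.5, 52.4, 61.7 and 52.3 CPM and the cKO cultures 77.6, 91.7, 98.8 and 25.1 CPM. The first 3 cKO cultures lay above all controls and replicate 4 lay below all of them. The log2 fold change was 0.39 (SE 0.344, adjusted p 0.385), and without replicate 4 it was 0.66 (adjusted p 0.000305), so that the call rests on that library. Skeletal muscle expresses Mef2c, and the muscle marker sum of the cKO cultures followed a like split, with 1226, 1693 and 2072 CPM in replicates 1 to 3 and 155.4 CPM in replicate 4; its part was not tested. In cartilage the control samples had 128.3, 127.1, 110.1 and 105.5 CPM and the cKO samples 78.9, 86.6, 111.5 and 66.3 CPM. Only cKO replicate 3 reached the control range. The log2 fold change of −0.45 (SE 0.157) was not called (adjusted p 0.105), but it was without that sample (−0.65, adjusted p 0.00769) and in the authors' estimated counts (−0.52, adjusted p 0.0438).

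Mef2d, the more abundant of the pair per kb in cultures, was called higher in cKO cultures at both days. At day 0 it was 68.1, 68 and 74.3 CPM in control and 89.1, 90.7 and 93.3 CPM in cKO cultures (log2 fold change 0.37, SE 0.0412, edgeR adjusted p 4.29e-05). At day 3 it was 66.8, 67.5, 72 and 60.3 CPM in control and 83.3, 87.3, 91.4 and 108.2 CPM in cKO cultures (0.49, SE 0.103, adjusted p 0.00455). The groups did not overlap on either day. It took 85.5% ± 0.437 (SD, n = 3) of the Mef2c and Mef2d total per kb in untreated controls. That share depends on the joined exon lengths, 5.985 kb for Mef2d and 15.715 kb for Mef2c. The means in CPM were 70.1 and 31.2. In cartilage the level was 24.8 to 35.3 CPM in control and 25.8 to 33.6 CPM in cKO samples, and the log2 fold change was −0.00 (SE 0.164, adjusted p 0.994).

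Hdac4, the deacetylase that restrains Mef2 and Runx2 proteins, was called higher in cKO cultures on both days. At day 0 it was 17.8, 17.6 and 17.7 CPM in control and 23.8, 20.9 and 19.4 CPM in cKO cultures. The controls were nearly equal and all cKO cultures were above them (log2 fold change 0.27, SE 0.074, edgeR adjusted p 0.011, and 0.318 with all 14 cultures fitted together). At day 3 it was 17.8, 15.9, 16.2 and 14.8 CPM in control and 23, 29.2, 24.2 and 47.3 CPM in cKO cultures. Replicate 4 had the highest value, but the other 3 cKO cultures were also above every control (0.96, SE 0.23, adjusted p 0.00898, and 0.66, adjusted p 0.000479, without replicate 4). In cartilage it was 73.5, 97.3, 84.4 and 91.1 CPM in control and 57.1, 67.3, 79.4 and 50 CPM in cKO samples, with overlap through 1 sample of each (−0.45, SE 0.16, adjusted p 0.112). Without cKO replicate 3 it was called (−0.59, adjusted p 0.0498).

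Sp7, the zinc finger factor osterix, had the largest genotype effect of the 10 at day 3. At day 0 the control cultures had 14.1, 13 and 14.2 CPM and the cKO cultures 21.2, 12.9 and 14 CPM. Only cKO replicate 1 was high there, and the log2 fold change was 0.22 (SE 0.163, edgeR adjusted p 0.273). After BMP2 the control cultures had 38.5, 20.6, 24.7 and 34.8 CPM and the cKO cultures 55.3, 85.3, 66.7 and 117.5 CPM. All cKO cultures were above all controls, with a mean of 81.2 ± 27.2 against 29.7 ± 8.37 CPM (SD, n = 4 each). The log2 fold change was 1.48 (SE 0.278, adjusted p 0.00274), and 1.22 (adjusted p 0.001) without cKO replicate 4. The 8 osteoblast markers, genes of cells in which Sp7 is also high, summed to 9189 to 9770 CPM in control and 9935 to 12430 CPM in cKO cultures at day 3, with 4 of the 8 called higher and 1 lower, and their part was not tested. The genotype effect on Sp7 exceeded that at day 0 by 1.24 (SE 0.378, adjusted p 0.0409), a call that was lost in 8 of the 14 fits that left out 1 culture (cKO replicates 2 and 3 and all 3 controls of day 0, cKO replicate 2 and control replicates 2 and 3 of day 3, with a highest adjusted p of 0.105). In cartilage Sp7 was low, with 8 to 32 counts per library. The control samples had 14.3, 27.3, 14.7 and 12.4 CPM and the cKO samples 6.72, 14, 7.14 and 6.89 CPM. Replicate 2 was the highest of both genotypes, and it alone brought the cKO range into that of the controls. The log2 fold change of −0.96 (SE 0.308) was not called (adjusted p 0.0809), but it was with no expression filter (−0.99, adjusted p 0.0238) and without control replicate 1 (−1.16, adjusted p 0.0497).

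Foxa2 and Foxa3, forkhead factors of the hypertrophic programme, were lower in untreated cKO cultures. For Foxa2 the controls had 10.8, 11 and 11.2 CPM and the cKO cultures 7.66, 8.82 and 9.9 CPM at day 0 (log2 fold change −0.32, SE 0.0949, edgeR adjusted p 0.0142). For Foxa3 they had 6.77, 5.68 and 6.35 CPM and 3.56, 3.33 and 3.51 CPM (−0.86, SE 0.102, adjusted p 6.89e-05). Neither gene's groups overlapped, but in the fit of all 14 cultures the adjusted p was 0.424 for Foxa2 and 0.07 for Foxa3. At day 3 both had few counts. Foxa2 had 6 to 33 counts in control and 8 to 11 counts in cKO cultures, and its log2 fold change was −1.12 (SE 0.494, adjusted p 0.0913). Foxa3 had 28 to 47 counts in control and 4 to 29 counts in cKO cultures, or 1.68 to 3.22 against 0.231 to 1.63 CPM. Its groups did not overlap, but the log2 fold change of −1.18 (SE 0.465) was not called (adjusted p 0.0635), while it was under DESeq2 (0.0386), with the 14 cultures in 1 fit (0.0136) and with cKO replicate 4 left out (−0.87 and 0.0354) or cKO replicate 1 left out (−1.52 and 0.04). Foxa2 at day 3 was also called in the fit of all 14 cultures (adjusted p 0.0256) and without control replicate 2 (−1.45, adjusted p 0.0153). In cartilage Foxa3 had 56.6 to 118.3 CPM in control and 36.6 to 84.8 CPM in cKO samples (−0.43, SE 0.23, adjusted p 0.29), and Foxa2 had 11.9 to 25.6 and 6.89 to 21.9 CPM (−0.51, SE 0.255, adjusted p 0.263). Both ranges overlapped.

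**Figure D4:**
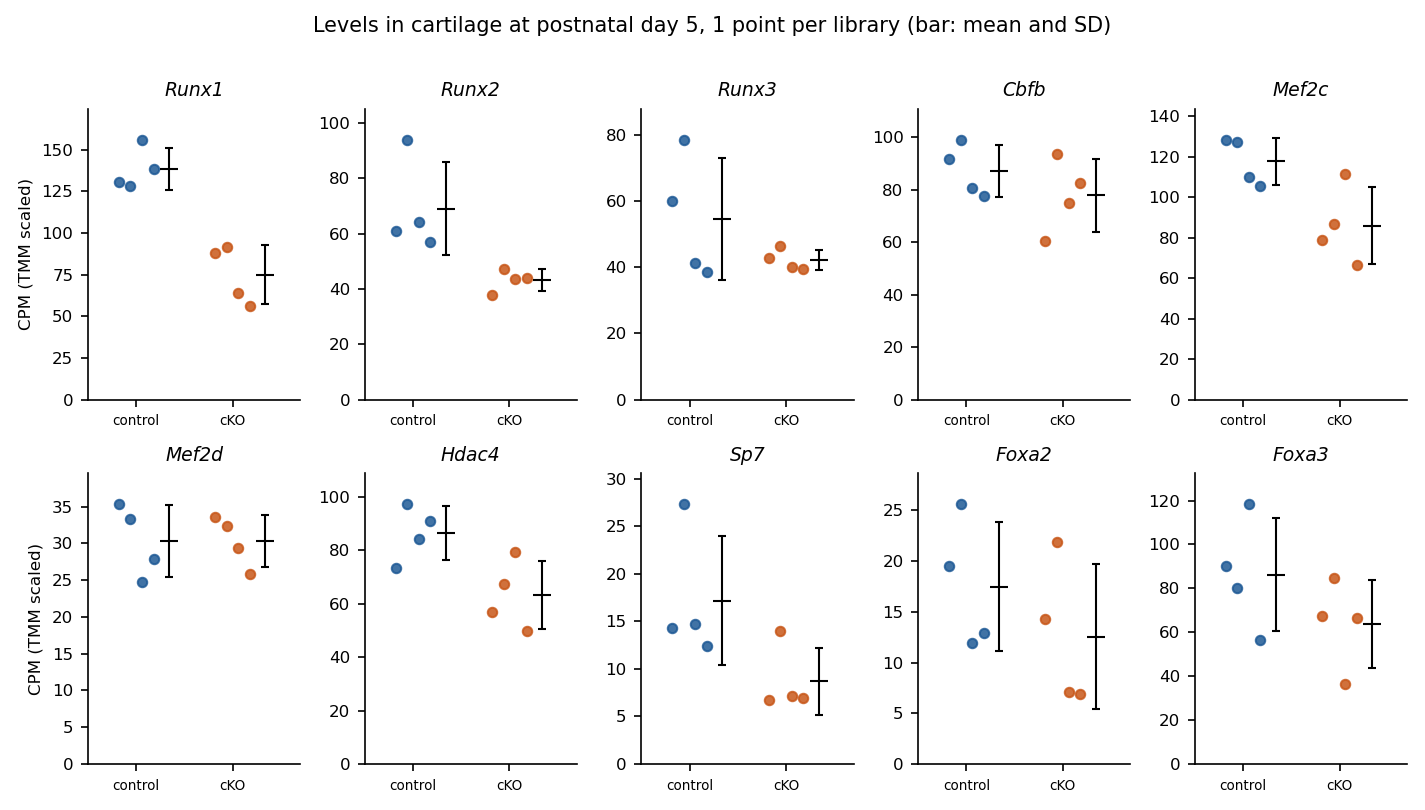
Level of each of the 10 genes (vertical axes, CPM from 0, each panel on its own scale) in every cartilage library of control (blue) and cKO (orange) mice at postnatal day 5, with the mean and SD in black. The orange points of Runx1 (56 to 91.8 CPM) and Runx2 (37.8 to 47.2 CPM) lie below all blue points, and 1 high point of each genotype stands out for Sp7.

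The next comparison set day 3 against day 0 within each genotype, in 1 fit of the 14 cultures. BMP2, time in culture and count table all differ between the days, so their parts cannot be told apart. In control cultures 7 of the 10 genes were called, against 56.9% of all genes (28.1% higher and 28.8% lower): Runx1, Runx2, Mef2c and Sp7 rose and Runx3, Foxa2 and Foxa3 fell. In cKO cultures 8 of the 10 were called (8 also without replicate 4 of day 3, where 67.2% of all genes were, 34.5% higher and 32.7% lower), against 62.2% of all genes (32.4% higher and 29.8% lower), in the same directions and with Hdac4 as the added riser. Both counts are near the background. Their median log2 fold change was −0.10 in control and 0.28 in cKO cultures, beside 0.00 and 0.02 over all genes.

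The Runx genes moved apart over these days. Runx1 rose by 0.98 on the log2 scale in control (SE 0.236, edgeR adjusted p 0.0032) and by 2.28 in cKO cultures (SE 0.246, adjusted p 5.94e-06), the called difference given above. Runx2 rose 1.99-fold in control (SE 0.177 on the log2 scale, adjusted p 0.00037) and by 0.66 on that scale in cKO cultures (SE 0.175, adjusted p 0.00545), and Runx3 fell by 0.94 (SE 0.212, adjusted p 0.00203) and by 0.85 (SE 0.209, adjusted p 0.00318). The difference between genotypes was −0.34 (SE 0.245, adjusted p 0.381) for Runx2 and 0.09 (SE 0.299, adjusted p 0.879) for Runx3. Their partner Cbfb was not called in either genotype, at −0.12 (SE 0.138, adjusted p 0.502) and −0.17 (SE 0.138, adjusted p 0.303).

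Sp7 rose by 1.11 in control (SE 0.275, edgeR adjusted p 0.00387) and by 2.34 in cKO cultures (SE 0.284, adjusted p 1.5e-05). Mef2c rose by 0.86 in control (SE 0.318, adjusted p 0.0346) and by 1.09 in cKO cultures (SE 0.319, adjusted p 0.00963, and 0.0614 in a fit of the cKO cultures alone). The control call of Mef2c was lost without any 1 of the 3 day 0 controls or without control replicate 1 or 3 of day 3 (highest adjusted p 0.0983). Without cKO replicate 4 of day 3 the genotype difference in the change of Mef2c was called, at 0.51 (adjusted p 0.00869), where it was 0.23 (SE 0.44, adjusted p 0.776) with all cultures. Mef2d was not called in either genotype, at −0.07 (SE 0.0848, adjusted p 0.484) and 0.02 (SE 0.0845, adjusted p 0.825).

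Hdac4 was at −0.13 (SE 0.198, edgeR adjusted p 0.602) in control and rose by 0.53 (SE 0.197, adjusted p 0.031) in cKO cultures. That call was lost in a fit of the cKO cultures alone (adjusted p 0.115) and without cKO replicate 2 or 3 of day 0 or cKO replicate 2 of day 3 (highest adjusted p 0.108), and the rise was 0.26 (adjusted p 0.0315) without cKO replicate 4 of day 3. The difference between the genotypes was 0.66 (SE 0.278, adjusted p 0.125). The Foxa genes showed the deepest falls of the 10. Foxa2 fell by 3.31 in control (SE 0.332, adjusted p 3.44e-06) and by 4.13 in cKO cultures (SE 0.359, adjusted p 1.01e-06), and Foxa3 by 1.45 (SE 0.346, adjusted p 0.00302) and by 1.79 (SE 0.368, adjusted p 0.000953). For neither was the difference between genotypes called (−0.82, adjusted p 0.297, and −0.34, adjusted p 0.7). For Foxa2 it was called in 1 of the 14 fits that left out 1 culture (adjusted p 0.0358). Over all 10 genes the difference was called for 2, Runx1 and Sp7, both higher, where 16.8% of all genes were called, 9.94% higher and 6.89% lower. Without cKO replicate 4 of day 3 it was called for 4, with Mef2c and Hdac4 (0.39, adjusted p 0.0484) added, where 27.3% of all genes were called (15.7% higher and 11.6% lower).

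**Figure D5:**
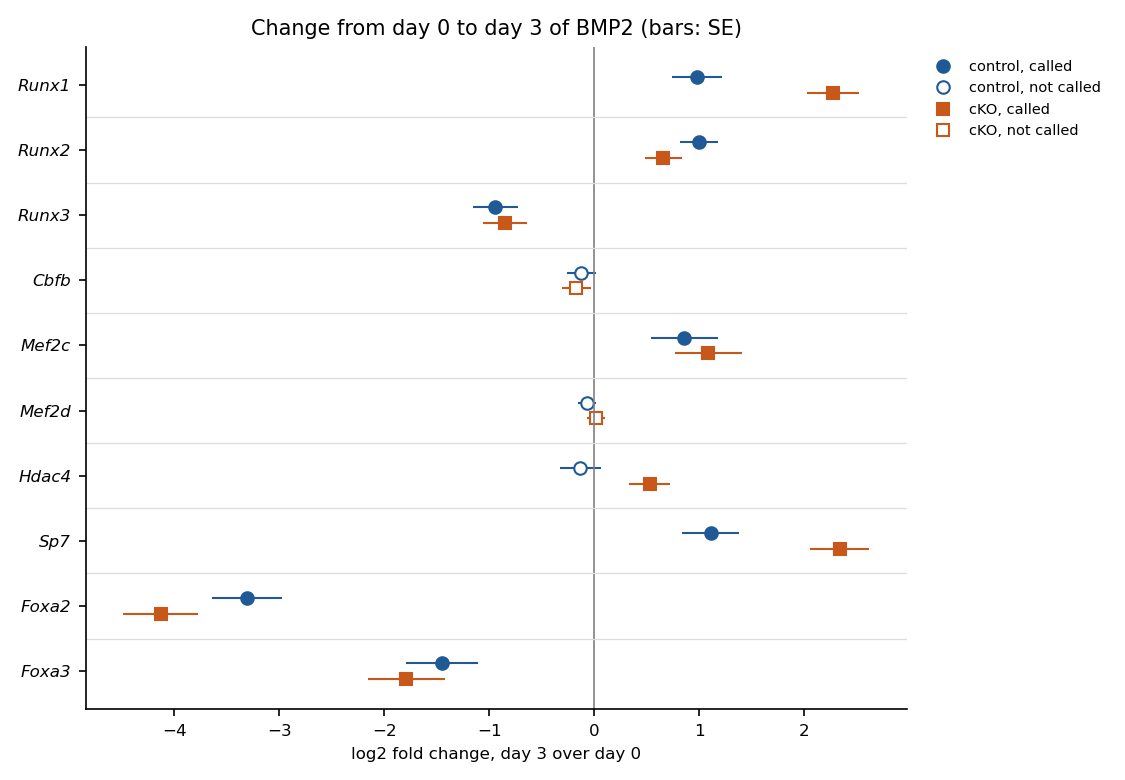
Log2 fold change from day 0 to day 3 of BMP2 (horizontal axis, bars are SE) in control (blue circles) and cKO cultures (orange squares), with filled symbols for an adjusted p under 0.05. Circle and square lie furthest apart for Runx1 (0.98 and 2.28) and Sp7 (1.11 and 2.34), and Foxa2 lies furthest to the left (−3.31 and −4.13).

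Genes that these factors act on were followed from a list. Of 15 genes of hypertrophic and mineralising chondrocytes, 13 were tested at day 0, of which 2 rose and 7 fell. At day 3, 14 were tested, of which 8 rose and 4 fell (9 and 4 without cKO replicate 4), and in cartilage 9 were tested, of which 0 rose by edgeR, by DESeq2 or at an unadjusted p under 0.05, and 5 fell. Of all genes tested, 33% were called higher and 31.6% lower at day 0, 25.5% and 22.6% at day 3, and 3.15% and 3.04% in cartilage. The median log2 fold change of the list was −0.78, 1.87 and −1.23, beside 0.01 over all genes in each, and the differences between the settings were not tested for the list. Ihh, the signal of prehypertrophic chondrocytes, fell at day 0 (−2.58, SE 0.139, edgeR adjusted p 5.98e-07), at day 3 (−2.88, SE 0.342, adjusted p 0.000265) and in cartilage (−1.48, SE 0.414, adjusted p 0.0465, lost in 6 of 8 fits that left out 1 sample). The channel gene Panx3 fell in all 3 as well (−1.57, −2.37 and −1.65, with adjusted p 2.3e-05, 0.000552 and 0.00596). Spp1, the gene of osteopontin, rose by 0.98 in untreated cultures (adjusted p 0.0023) and by 3.52 after BMP2 (adjusted p 8.07e-05), and Alpl, the phosphatase of mineralisation, rose at day 3 (2.87, adjusted p 0.000121). In cartilage the collagenase Mmp13 fell by 2.17 (SE 0.46, adjusted p 0.00925), a call lost in 2 of 8 fits that left out 1 sample.

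A list of 18 restraints on the programme gave calls in both directions, as did all genes tested. All 18 were tested at day 0, where 7 rose and 8 fell. At day 3, 17 were tested, of which 7 rose and 5 fell, and in cartilage 14 were tested, of which 1 rose and 1 fell. These 15 of 18, 12 of 17 and 2 of 14 stand beside 64.5%, 48.1% and 6.19% of all genes called. Sox9, the chondrocyte factor that keeps Runx2 in check, fell at day 0 (−0.71, edgeR adjusted p 4.81e-06) and at day 3 (−1.45, adjusted p 0.0315, lost in 5 of 8 fits that left out 1 culture). Nkx3-2, a repressor of Runx2, fell on both days (−0.97, adjusted p 2.73e-05, and −1.68, adjusted p 3.42e-05). Twist2, which binds Runx2 protein, rose at day 0 (1.21, adjusted p 7.49e-05). Pth1r, the receptor of the parathyroid hormone-related peptide that delays hypertrophy, fell in cartilage (−0.80, adjusted p 0.0163, lost in 3 of 8 such fits).

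Among 20 partners and activators, 8 rose and 5 fell at day 0 and 10 rose and 4 fell at day 3 (9 and 7 without cKO replicate 4). In cartilage 15 were tested, of which 0 rose by edgeR or DESeq2 (2 at an unadjusted p under 0.05) and 2 fell. The 13 of 20 at day 0 are at the background of 64.5% of all genes, and the 14 of 20 at day 3 and 2 of 15 in cartilage stand beside 48.1% and 6.19%. The AP-1 gene Fosl2 rose by 0.99 (edgeR adjusted p 2.3e-07) and 2.60 (adjusted p 1.18e-06) at days 0 and 3, and the kinase gene Sik1 by 1.33 (adjusted p 2.87e-06) and 2.46 (adjusted p 2.92e-05). Atf4 fell by 0.62 (adjusted p 2.18e-06) and 1.06 (adjusted p 0.000116), and Shox2, a homeobox gene of the limb, by 0.91 (adjusted p 1.02e-06) and 1.03 (adjusted p 0.00143). In cartilage the 2 falls were of Epas1 (−1.20, adjusted p 0.00452) and the BMP signal carrier Smad1 (−0.69, adjusted p 0.0382, lost in 4 of 8 fits that left out 1 sample).

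Of 12 relatives of the 10 genes, 11 were tested at day 0, where 5 rose and 3 fell. At day 3, 10 were tested, of which 3 rose and 1 fell, and in cartilage none of 9 was called by edgeR or by DESeq2 (3 were lower at an unadjusted p under 0.05, and 0 higher). The 8 of 11 and 4 of 10 called in cultures are near the background of 64.5% and 48.1% of all genes, and 6.19% were called in cartilage. The risers at day 3 were the other class IIa deacetylases Hdac9 (2.73, SE 0.55, edgeR adjusted p 0.00378), Hdac7 (1.08, SE 0.115, adjusted p 0.000152) and Hdac5 (0.44, SE 0.0991, adjusted p 0.00628). Hdac7 (1.31, adjusted p 1.19e-05) and Hdac5 (0.52, adjusted p 2.91e-06) had also risen at day 0. Mef2b fell at day 0 (−1.97, SE 0.162, adjusted p 6.8e-06), and Foxc2 fell on both days (−0.62, adjusted p 0.00213, and −0.93, adjusted p 0.002).

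The genes whose pattern over the 14 cultures was most like each of 4 members are given as a description, by Pearson's r of log2 CPM across 11864 other genes. For Runx2 the closest were Efna3 (r = 0.957), Fbxw9 (0.955) and Fam210b (0.952). Mef2c was closest to Il1rn (0.967), Kank4 (0.946) and Il18 (0.945), and Sp7 to Dnaja4 (0.975), Parvb (0.971) and Otulinl (0.970). Hdac4 was closest to Kifc3 (0.972), Prkab2 (0.965) and Cyb5r3 (0.960). The 14 cultures fall into 4 groups that these genes share, and the depth differed between the days, so these values describe levels by group.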

How the data were processed

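Messenger RNA had been sequenced from 14 chondrocyte cultures and 8 cartilage samples, grouped by their labels. For the cultures the values deposited by the authors are estimated counts of each gene, with a table per day, rounded here to whole numbers. For cartilage they deposited whole-number counts per gene, used as the main values, and estimated counts per gene, used as an alternative. The submitters' processing notes name the build GRCm38 for all samples and, for cartilage, UMI-tools 1.1.1, Trim Galore 0.6.7, HISAT2 2.2.1, featureCounts 2.0.1 and DESeq2 1.34.0, with no role or order. For the cultures the aligner and counting tool are not given in the sources used here. Per the labels' protocols the culture kit is directional and the cartilage libraries carry 3′ tags with molecular identifiers, so levels between genes were compared per kb only in the cultures. The number of per-sample columns not used is 0.

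Counts were tested with edgeR 4.0.16 in R 4.3.3 (quasi-likelihood test, TMM scaling, filterByExpr with at least 10 counts and 15 in total, Benjamini-Hochberg adjustment over all genes tested). Day 0, day 3 and cartilage were fitted separately, cartilage with sex as a covariate, and 1 fit of the 14 cultures in 4 groups gave the changes between days and their difference. SE was taken from the log2 fold change and the F statistic. The fits were tested on simulated data. Alternatives were DESeq2 1.42.0, RLE scaling, no expression filter, a replicate block, leaving out each sample, no sex covariate and the estimated-count table. Log2 CPM used a prior count of 2. A library's floor is 3 counts, or 0.058 to 0.0719 CPM at day 0, 0.159 to 0.208 at day 3 and 1.59 to 2.73 in cartilage, for counting error only. Replicates differed by more than sampling noise (chi-square per degree of freedom 3.529 to 138.4), so each counted once.

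Gene positions and exon lengths came from GENCODE M21 on GRCm38 (34582 of 34866 culture identifiers and 23884 of 23911 cartilage identifiers matched), and promoter sequences from RefSeq. The members and gene lists were chosen with earlier results of these data known. All 10 members were named in every comparison. From 4 lists of other pathway genes, those named came from the 3 called genes with the largest log2 fold change in each direction and comparison, and likeness was computed over genes whose log2 CPM averaged 1 or more. Values of some genes on these lists are not reported here.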

Additional observations from a re-analysis of the deposited data

Results flagged for a closer look

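Results stood out in 2 ways, as single libraries and as effects that differ. Single libraries were compared with the rest of their group in 40 groups of 4, at a level that chance alone passes in about 1 group of 20, and 3 passed. Runx1 at day 3 had 1 low cKO culture, replicate 4 at 48.1 CPM beside 93.6 to 102 CPM. Sp7 in cartilage had 1 high sample in each genotype, replicate 2 in both, at 27.3 CPM beside 12.4 to 14.7 CPM in control and at 14 CPM beside 6.72 to 7.14 CPM in cKO.

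The genotype effect differed between the days for Runx1, by 1.30 on the log2 scale (SE 0.327, edgeR adjusted p 0.0174), and for Sp7, by 1.24 (SE 0.378, adjusted p 0.0409). For Runx2 the direction differed between settings. All cKO cultures were above all controls at day 0 (log2 fold change 0.46), while all cKO cartilage samples were below all controls (−0.66). The difference between these settings was not tested, since the libraries come from different methods and tables.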

How the results depend on the processing

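Most values of the 10 genes kept their direction and their side of the threshold. Of 940 values under the alternatives 876 did, 21 gained a call, 30 lost one and 13 changed sign. The 940 include fits of a change between days without a culture of the other genotype. Such fits hardly move the fold change, as for Foxa2 in controls (−3.31 with all cultures and without day 0 cKO replicate 1), so they say little on its stability. With the 14 cultures in 1 fit the genotype effect at day 0 gave 6260 genes and 1 of the 10 members called, and 7 members were called at day 3. In cartilage DESeq2 called 1 member, leaving out the expression filter gave 1044 genes, and without the sex covariate Mef2d was at 0.00. The cause of these shifts was not tested. Leaving out single samples moved the count in cartilage from 362 to 630 genes and from 1 to 4 members, and that of the interaction from 1591 to 4051 genes and from 1 to 4 members. The sign changes were all of values that were not called. Without single samples Sp7 at day 0 ran from −0.04 to 0.35, Runx2 at day 3 from −0.04 to 0.23, Cbfb at day 3 from −0.14 to 0.04, Mef2d in cartilage from −0.05 to 0.03, and the change of Mef2d in cKO cultures from −0.06 to 0.05. In the interaction Runx3 ran from −0.17 to 0.20 and Cbfb from −0.14 to 0.08. At day 3 the lowest counts, those of Foxa2 and Foxa3, limit what can be seen, as do the 8 to 32 counts of Sp7 in cartilage.

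Deviations of same-numbered replicates of the genotypes correlated weakly at most (−0.0634 to 0.14 at day 0, −0.145 to −0.064 at day 3 and −0.0819 to 0.265 in cartilage). No pairing by number was shown, and the main fits used none. With so few samples per group these correlations cannot exclude a pairing. Best agreement with its own number was found for 1 of 3 control samples at day 0, for 0 of 4 after BMP2 and for 2 of 4 from cartilage. With a replicate block 9724, 5391 and 576 genes were called at day 0, at day 3 and in cartilage, 8241 and 9011 for the changes in control and cKO cultures, and 2490 for the interaction. The members called with the block were 7, 6, 3, 7, 7 and 2 in that order. The block added calls for Mef2c at day 0 (0.15, adjusted p 0.0408), for Runx3 (0.54, 0.0406) and Foxa3 (−1.30, 0.0464) at day 3 and for Sp7 in cartilage (−0.97, 0.0431). The change of Hdac4 in cKO cultures was not called with it (0.39, adjusted p 0.098), and it changed no other call of the 10 genes.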
